A study of Mus musculus with 15 samples.

Results

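Semaphorins, plexins and neuropilins form one ligand and receptor system, and their 31 genes were followed here among the 36814 genes counted in 5 pools of mouse motor neurons. The genes were taken by symbol alone, as every semaphorin of classes 3 to 7 (20 ligands), every plexin (9) and both neuropilins in the table. Wild-type mice had a fluorescent tracer, CTB coupled to Alexa 555, injected at postnatal day 4 into 1 hind-limb muscle or muscle group. This was the tibialis anterior (TA), which lifts the foot, the extensor digitorum longus (EDL) of the toes, the peroneus longus (PL), the gastrocnemius (GS) of the calf, or the muscles intrinsic to the foot (IF). At postnatal day 6 the traced neurons were cut from frozen spinal cord sections with a laser, and 30 to 40 cells of 2 to 5 animals made 1 library, with 3 libraries for each pool. No label ties a library to particular animals, so the p-values rest only on the spread of pooled libraries within a pool. That spread was estimated for each gene over all 5 pools together. In such pools, fewer cells with a transcript and less of it per cell cannot be told apart.

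Semaphorins are secreted or membrane-bound guidance cues that steer growing axons, mostly by repulsion, and also act in synapse formation. Plexins are their signalling receptors, while neuropilins are co-receptors that bind the secreted class 3 ligands and join with A-type plexins. In the developing limb, class 3 semaphorins and neuropilins on motor axons are known to time and steer entry into the limb, and several class 6 ligands bind A-type plexins without a neuropilin.

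The gene counts summed to between 4417114 and 8488368 per library. PL 2 and PL 3 stood apart, where only 11019 and 10548 genes had a read and 25.7% and 29.2% of those tested had none, and between 21 (PL 3) and 31 (IF 1) of the members had a read in a library. Results that rest on PL are therefore also given without these libraries. Chat and Slc5a7, genes of motor neurons, were present in every library, at 66.2 to 495 CPM and at 706 to 1907 CPM. Chat was highest in PL, at 241, 478 and 495 CPM, against 222 or less in every other library and 80.4 to 85.2 in IF. Isl2 ran from 0.68 to 318 CPM and Mnx1 from 1.76 to 35.1 CPM. Isl1 stood at 51.4 to 115 CPM in GS and IF and was without a read in 8 of the 9 libraries of the other 3 pools. Levels are CPM, read counts per 1000000 counts of a library scaled by the TMM method, and RPKM is the same value per kilobase of gene length, used wherever genes are set against each other.

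All 11 receptors and 18 of the 20 ligands had enough reads to be tested, and Sema3f and Sema3g did not. Tested for a difference anywhere among the 5 pools with edgeR's quasi-likelihood method, 1 of the 29 tested members had a Benjamini-Hochberg adjusted p under 0.05, against 1.31% of all genes tested. That member was the receptor Plxna2, with an adjusted p of 0.000140. An unadjusted p under 0.05 was reached by 11 of 29 members (37.9%), against 15.5% of all genes tested: 3 receptors (Plxna1, Plxna2 and Plxna3) and 8 ligands (Sema3b, Sema3c, Sema3d, Sema4b, Sema4g, Sema5a, Sema5b and Sema6a). The 10 of these other than Plxna2 had adjusted p-values between 0.163 (Sema4b) and 0.290 (Sema6a) in the same edgeR test. For 4 of the 29 members, all 3 libraries of a pool lay above or below all 12 others in TMM-scaled levels. These were Plxna2 above in PL, Plxna1 below in IF, Plxna3 below in TA and Sema3b above in EDL, so 1 of 29 members in each of these pools, against 1.83%, 3.10%, 1.19% and 0.656% of all genes tested.

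Plxna2, a receptor for class 6 semaphorins that also signals with neuropilins for class 3 ligands, lies on chromosome 1 (mm9, 196446023 to 196643064, plus strand, ENSMUSG00000026640). Sema5a, a transmembrane ligand with thrombospondin repeats, lies on chromosome 15 (mm9, 32174568 to 32626097, plus strand, ENSMUSG00000022231). The 250 bases before the annotated start of both genes are shown because these were the receptor and the ligand that passed the test in PL with high values in more than 1 PL library. Sequences come from RefSeq on the build GRCm38.p6, at chr1:194619579-194619828 and chr15:32244563-32244812, plus strand, a different build from that of the counts. Capitals mark 2 motifs on either strand: GGGCGG (or CCGCCC), the GC box, and TAAT (or ATTA), the core of many homeodomain binding sites.
Plxna2: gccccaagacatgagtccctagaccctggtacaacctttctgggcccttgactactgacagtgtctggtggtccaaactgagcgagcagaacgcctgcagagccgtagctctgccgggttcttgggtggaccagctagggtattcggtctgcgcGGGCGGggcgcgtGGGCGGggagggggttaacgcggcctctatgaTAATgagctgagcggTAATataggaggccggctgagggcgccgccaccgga
Sema5a: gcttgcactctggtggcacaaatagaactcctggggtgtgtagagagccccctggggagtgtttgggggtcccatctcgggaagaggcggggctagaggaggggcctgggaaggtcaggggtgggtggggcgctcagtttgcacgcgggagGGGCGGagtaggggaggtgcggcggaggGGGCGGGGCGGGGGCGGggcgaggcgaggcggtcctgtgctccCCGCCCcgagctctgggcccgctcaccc
The window of Plxna2 held 2 GC boxes and 2 TAAT motifs and had 62.8% G and C, while that of Sema5a held 5 GC boxes, some overlapping each other, no TAAT motif and 72% G and C. Of all 32851 windows, each cut to the same 250 bases, 32.7% held a GC box and 54.9% a TAAT motif. The table matched 26 members with 37 windows, of which 27 held a GC box and 14 a TAAT motif. Plxna1, Plxna4, Sema3b, Sema3f and Sema6a had no entry. A match is a description of letters and not a binding site.

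The receptors were led by A-type plexins and neuropilins. Averaged over the 15 libraries, Nrp2 stood at 44.6 RPKM, Plxna1 at 43.1, Plxna4 at 38.6, Nrp1 at 25.2, Plxna2 at 20.3 and Plxna3 at 7.37. Receptors of the other types were lower, at 3.30 RPKM for Plxnb1, 1.57 for Plxnb2, 0.688 for Plxnb3, 0.649 for Plxnc1 and 0.497 for Plxnd1. Among plexins, the libraries thus held mostly transcripts of those that partner with neuropilins. They held few of the plexin receptors for Sema4d (Plxnb1), Sema7a (Plxnc1) and Sema3e (Plxnd1). Sema7a also signals through integrins, whose gene Itgb1 had pool means of 230 (IF) to 557 CPM (PL). Those of Itga1 were 1.60 (GS) to 15.2 CPM (PL).

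**Figure D1:**
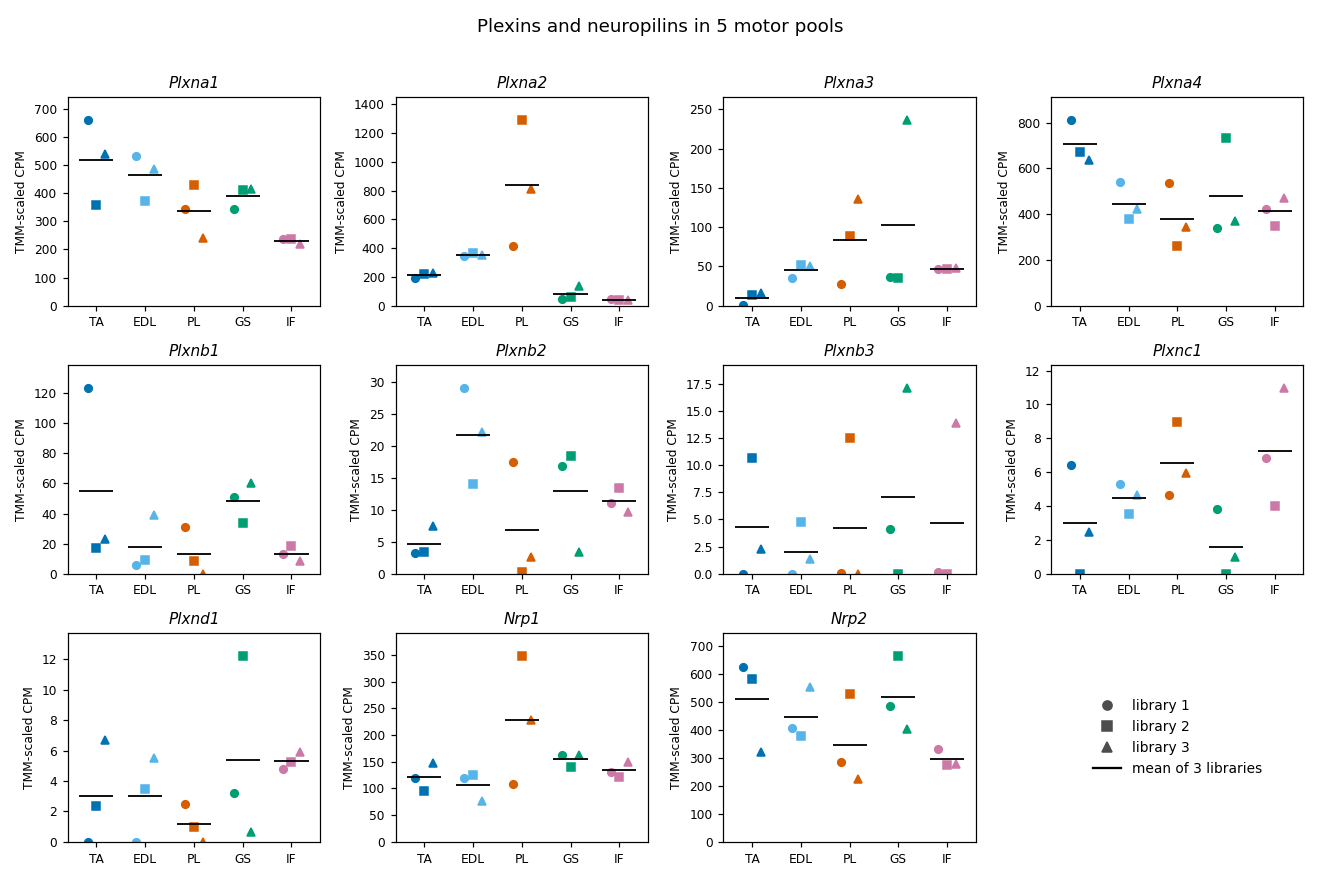
TMM-scaled CPM of the 9 plexins and both neuropilins in each of the 15 libraries, by pool; points are libraries, with a shape for each replicate number, bars are means of 3 libraries, and each panel has its own linear axis from 0. Plxna2 runs from 38.5 CPM in IF to 1295 CPM in PL, while Nrp2 stays between 225 and 667 CPM.

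Plxna2 was the receptor that set pools apart. It stood at 415, 1295 and 809.9 CPM in the libraries PL 1, 2 and 3, at 346, 364 and 355 in EDL, at 192, 218 and 229.7 in TA, at 44.3, 59.8 and 139 in GS and at 49.1, 41.4 and 38.5 in IF. All PL libraries lay above all others, the EDL and TA libraries formed narrow bands beneath them, and those of GS and IF overlapped at the bottom. Means were 840.2 ± 441 CPM in PL (SD, n = 3), 355 ± 9.43 in EDL, 213 ± 19.0 in TA, 80.9 ± 50.7 in GS and 43.0 ± 5.48 in IF. In the comparison of PL with the mean of the other 4 pools, Plxna2 rose by 2.72 ± 0.29 (log2, SE), with an adjusted p of 0.000107 by the edgeR quasi-likelihood test. In IF it fell by 2.64 ± 0.40 on the log2 scale (edgeR adjusted p = 0.00201).

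The order of pools for Plxna2 was PL, EDL, TA, GS and IF. Over the 10 pairs of pools there were 4 calls among the members, and all were of Plxna2. By the edgeR test, it was higher in PL than in IF by 4.29 ± 0.47 (log2, SE, adjusted p = 0.000156) and higher in PL than in GS by 3.38 ± 0.45 (adjusted p = 0.00209). Its EDL level exceeded that of IF by 3.05 ± 0.45 (edgeR adjusted p = 0.00356) and its TA level that of IF by 2.31 ± 0.43 (edgeR adjusted p = 0.0126). In each of these 4 pairs 1 of 29 members was called in that direction, against 0.760% of all genes in PL over IF, 0.0837% in PL over GS, 0.105% in EDL over IF and 0.384% in TA over IF. The 4 pairs of neighbours in the order were not called, with edgeR adjusted p-values of 0.211 or more. PL and EDL were called without PL 1, where 1778 of 14984 genes were called in that pair, against 7 of 14340 with all libraries. TA and PL differed by 1.98 ± 0.43 (log2, SE) with an edgeR adjusted p of 0.0542, which misses the threshold. They were called under RLE scaling, with no filter, by DESeq2, without PL 1 and without GS 3. EDL and GS, apart by 2.13 ± 0.43 (edgeR adjusted p = 0.0935), were not called either, but were with no filter, by DESeq2, without PL 1, PL 2 or GS 3, and without PL 2 and PL 3.

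The call of Plxna2 in PL held without any single library, with log2 differences between 2.26 (without PL 2) and 3.01 (without PL 1). Without PL 2 and PL 3 together, PL 1 alone stood 1.70 ± 0.37 above the other pools and the edgeR adjusted p was 0.129. The call in IF, and those of PL over IF and EDL over IF, held under all 21 alternative settings, that of TA over IF was lost without IF 1, IF 2 or IF 3 and by limma voom, and that of PL over GS without PL 2 and PL 3. In the authors' deposited table of EDL over IF, Plxna2 had a ratio of mean normalized counts of 8.26 and an adjusted p of 2.11e-11. The authors' deposited table of PL over IF gave it a ratio of 20.0 and an adjusted p of 0.0282. Their deposited list of TA over IF did not hold Plxna2, which edgeR called in that pair.

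Plxna2 also took a different part of the summed plexin level in each pool. Of the length-scaled levels of the 9 plexins (RPKM), it made up 38.8% in PL (23.2 to 50.6% over 3 libraries), 19.4% in EDL (17.0 to 22.6%), 10.6% in TA (7.68 to 12.7%), 4.74% in GS (3.29 to 7.36%) and 3.91% in IF (3.31 to 4.398%). The summed plexin level itself was 138 ± 27.5 RPKM in PL and 138 ± 26.6 in TA, followed by EDL at 122.5 ± 14.3, GS at 109 ± 23.3 and IF at 73.0 ± 4.66. PL and TA were thus close in sum but differed in which plexin made it up: Plxna4 supplied 41.3% of it in TA and 23.3% in PL. A share moves when any other plexin does, so these shares are a description and were not tested.

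**Figure D2:**
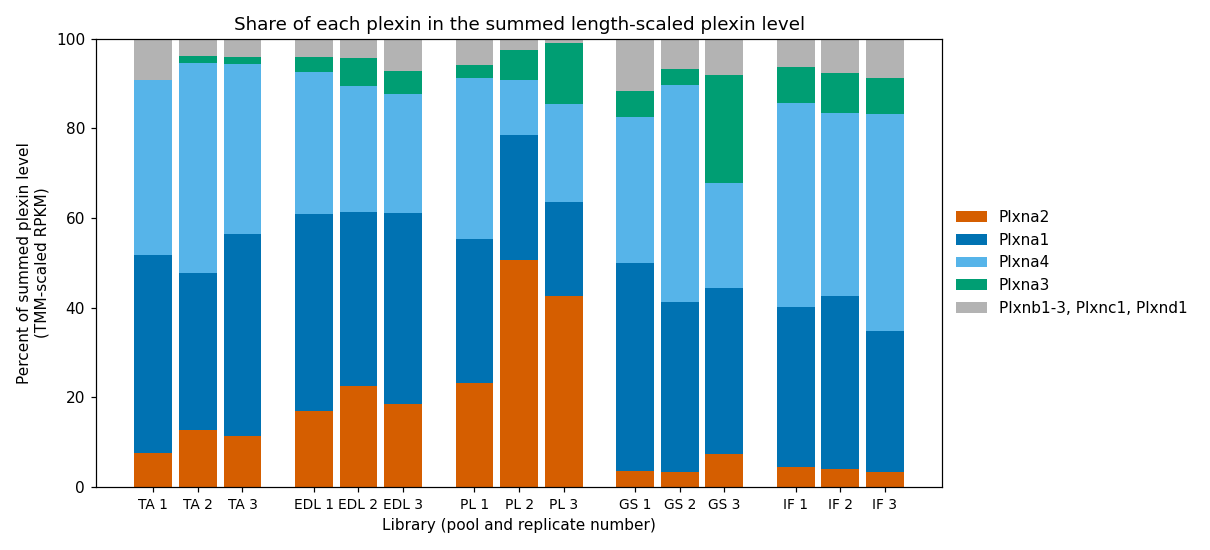
Percent of the summed plexin level (TMM-scaled RPKM) supplied by each A-type plexin and by the 5 other plexins together, stacked for each of the 15 libraries. Plxna2 supplies between 3.31% and 4.398% in IF libraries and between 23.2% and 50.6% in PL libraries.

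Plxna1, the A-type plexin with the highest level here, stood at 662, 358 and 539 CPM in TA, at 532, 372 and 486 in EDL, at 344, 413 and 416 in GS, at 344, 428 and 240.0 in PL and at 238, 237 and 219 in IF. In TMM-scaled CPM the 3 IF libraries lay beneath all 12 others, the nearest being PL 3. This order rests on the scaling, with TMM factors of 0.670 in PL 3 and 1.19 to 1.21 in IF. Before scaling, PL 3 lay beneath IF, with 1088 Plxna1 reads of 6779691 counts. The IF libraries had 2342 of 8258781, 1895 of 6640193 and 1517 of 5757374. The IF difference from the other pools was -0.87 ± 0.26 (log2, SE), with an edgeR adjusted p of 0.141. By DESeq2, and by edgeR without PL 3, Plxna1 was called higher in TA than in IF. The span of a gene model on the opposite strand, Gm16896, overlaps that of Plxna1, and this gene had 7776 reads of its own. The library kit does not mark strand, so reads from any shared bases could not be assigned by strand. Whether the genes share counted bases was not checked.

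Plxna3, a plexin for Sema3f and Sema3a, stood at 1.19, 13.4 and 16.5 CPM in TA, at 35.5, 52.0 and 50.7 in EDL, at 27.7, 88.8 and 135 in PL, at 37.1, 34.7 and 237 in GS and at 46.3, 47.4 and 47.9 in IF. All 3 TA libraries lay beneath the 12 others, and GS 3 alone lifted the GS mean to 103 ± 116 CPM. The TA difference was -2.67 ± 0.80 (log2, SE; edgeR adjusted p = 0.177). The authors' deposited table of GS over TA lists Plxna3 with a ratio of 10.3 and an adjusted p of 0.0224, while the edgeR test of the same pair gave an adjusted p of 0.417. DESeq2, and edgeR with no filter, also called Plxna3 lower in TA than in GS.

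Neuropilins were present in every library. Nrp2, the co-receptor for Sema3f and Sema3c, averaged 519 ± 135 CPM in GS and 511 ± 164 in TA, against 447 ± 94.5 in EDL, 347 ± 161 in PL and 295 ± 31.3 in IF. Nrp1, the co-receptor for Sema3a, was at 228 ± 120.4 CPM in PL, 155 ± 13.2 in GS, 134 ± 13.9 in IF, 121 ± 26.3 in TA and 107 ± 26.8 in EDL. Neither passed the 5-pool test, with edgeR adjusted p-values of 0.498 and 0.438, and Nrp1 was called in PL only without PL 1. Nrp1 made up 50.4 ± 12.2% of the summed neuropilin RPKM in PL, 42.3 ± 3.65% in IF, 33.2 ± 7.26% in GS, 28.9 ± 11.7% in TA and 28.3 ± 8.93% in EDL. The EDL libraries, at 34.9% or less, lay beneath those of PL and IF, and the other ranges overlapped.

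The remaining plexins were called in none of the comparisons with all 15 libraries, and of the alternatives only the fit without PL 1 called one, Plxna4, in TA against PL. Plxna4, a receptor for Sema3a and Sema6a, had its highest mean in TA, 707 ± 93.3 CPM, and its lowest in PL, 381 ± 142. Plxnb1, the Sema4d receptor, ranged from 0 CPM in PL 3 to 124 in TA 1, and Plxnb2, a receptor for class 4 ligands, from 0.319 in PL 2 to 29.1 in EDL 1. Plxnb3, a receptor for Sema5a, was without a read in 5 of the 15 libraries, Plxnd1 in 3 and Plxnc1 in 2, and their library values reached 17.1, 12.3 and 10.99 CPM at most.

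Among the ligands, Sema7a and Sema3a led. Per length and over all 15 libraries, the highest of each class were Sema7a (75.7 RPKM), the membrane-anchored class 7 member, Sema3a (49.5) of the secreted class 3, Sema6d (26.6) of class 6, Sema4f (22.7) of class 4 and Sema5a (14.1) of class 5. Sema6a stood close to Sema6d, at 26.4 RPKM. At the other end were Sema4c at 0.616 RPKM, Sema3e at 0.310, Sema3f at 0.0605 and Sema3g at 0.00869, the last with 4 reads over all libraries.

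**Figure D3:**
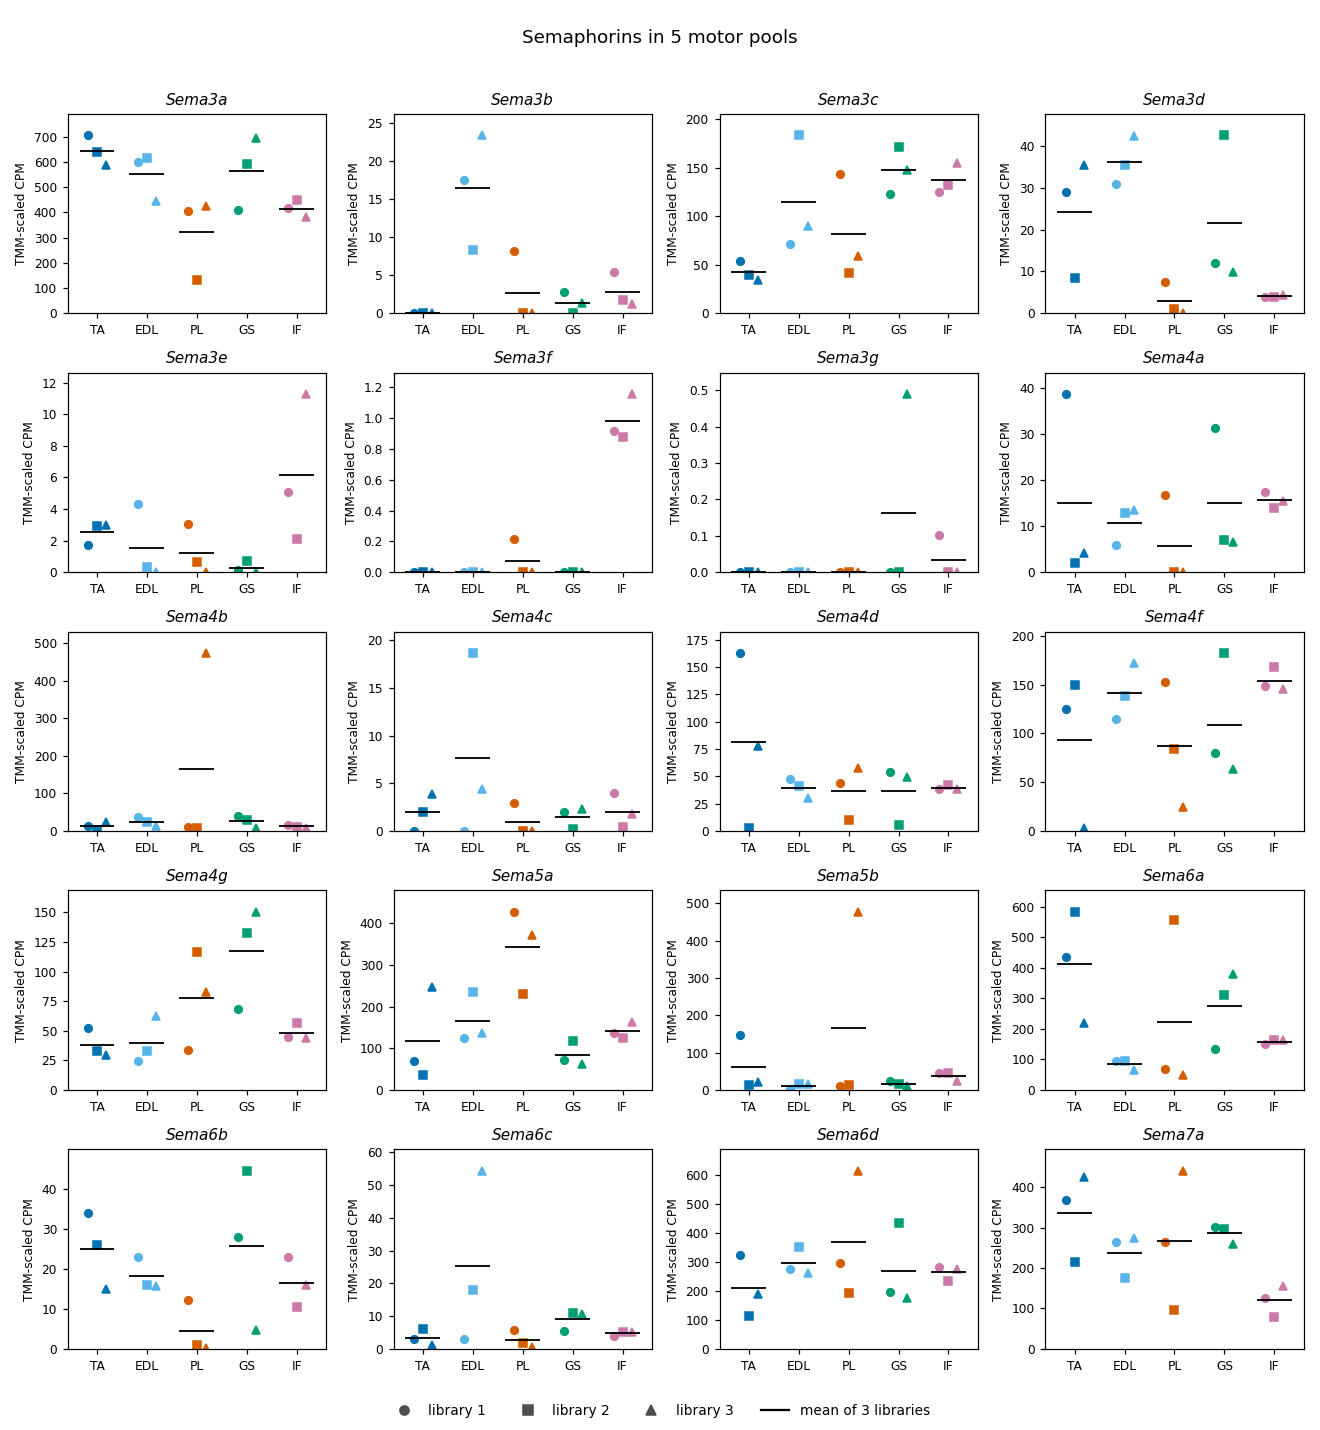
TMM-scaled CPM of the 20 semaphorins in each of the 15 libraries, by pool; points are libraries, with a shape for each replicate number, bars are means of 3 libraries, and each panel has its own linear axis from 0. Sema4b and Sema5b are carried in PL by a single library, at 474 and 477 CPM, and Sema3f has reads in all 3 IF libraries and in PL 1.

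In PL against the other 4 pools, 4 of the 29 members rose and none fell, with 4.50% of all genes tested called higher, 0.363% called lower and 4.87% called either way. Besides Plxna2 these were 3 of 18 ligands, Sema5a, Sema4b and Sema5b. By DESeq2, 3 rose and Sema3d and Sema6b fell, with 1717 of 14340 genes called. Without PL 1, 4 rose and Sema3d, Sema4a and Sema6b fell, with 3210 of 14984 genes called. Without PL 2, 4 rose and Sema6a fell, with 608 of 15103 genes called. The log2 difference was above 0 in 4 of 11 receptors and 8 of 18 ligands, with medians of -0.19 and -0.31, against -0.06 over all genes. Calls shared by the PL libraries and calls carried by 1 library were mixed in this count.

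Sema5a stood at 428, 231 and 372 CPM in PL, against 125, 235 and 137 in EDL, 138, 124 and 163 in IF, 68.7, 35.9 and 248 in TA and 72.5, 119 and 63.2 in GS. PL 1 and PL 3 lay above every other library, while PL 2 fell beneath TA 3 and EDL 2. It rose in PL by 1.47 ± 0.39 (log2, SE; edgeR adjusted p = 0.0350). This call was lost, with the difference between 1.25 and 1.47, when any of EDL 1, EDL 3, PL 1, PL 3, GS 1, GS 3, IF 1, IF 2 or IF 3 was left out, the edgeR adjusted p then reaching 0.0918 at most. Without PL 2 and PL 3 the difference was 1.78 ± 0.54, with an edgeR adjusted p of 0.380.

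Sema4b, a transmembrane class 4 ligand (chromosome 7, mm9, 87331727 to 87371281, plus strand), stood at 10.3, 8.62 and 474 CPM in PL, at 36.6, 23.5 and 12.2 in EDL, at 40.8, 28.3 and 8.49 in GS, at 14.1, 3.97 and 24.8 in TA and at 17.0, 12.0 and 8.68 in IF. Sema5b, the other class 5 ligand (chromosome 16, mm9, 35541231 to 35664819, plus strand), stood at 10.8, 13.7 and 477 CPM in PL, at 146, 13.7 and 21.6 in TA, at 44.5, 46.5 and 24.3 in IF, at 23.1, 14.98 and 10.4 in GS and at 2.20, 14.9 and 14.7 in EDL. For both genes PL 3 held the high value, and PL 1 and PL 2 lay within the range of the other pools. The edgeR test called them, at 3.17 ± 0.75 (log2, SE, adjusted p = 0.0207) for Sema4b and 2.73 ± 0.77 (adjusted p = 0.0480) for Sema5b. When 1 library was left out, the Sema4b call was lost only without PL 3. That of Sema5b was lost in 12 of these 15 fits and held only without TA 1, PL 1 or PL 2. Without PL 3 the differences turned to -0.95 ± 0.83 and -1.04 ± 0.87, and without PL 2 and PL 3 to -0.83 ± 1.05 and -1.21 ± 1.16, with no call in either case.

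**Figure D4:**
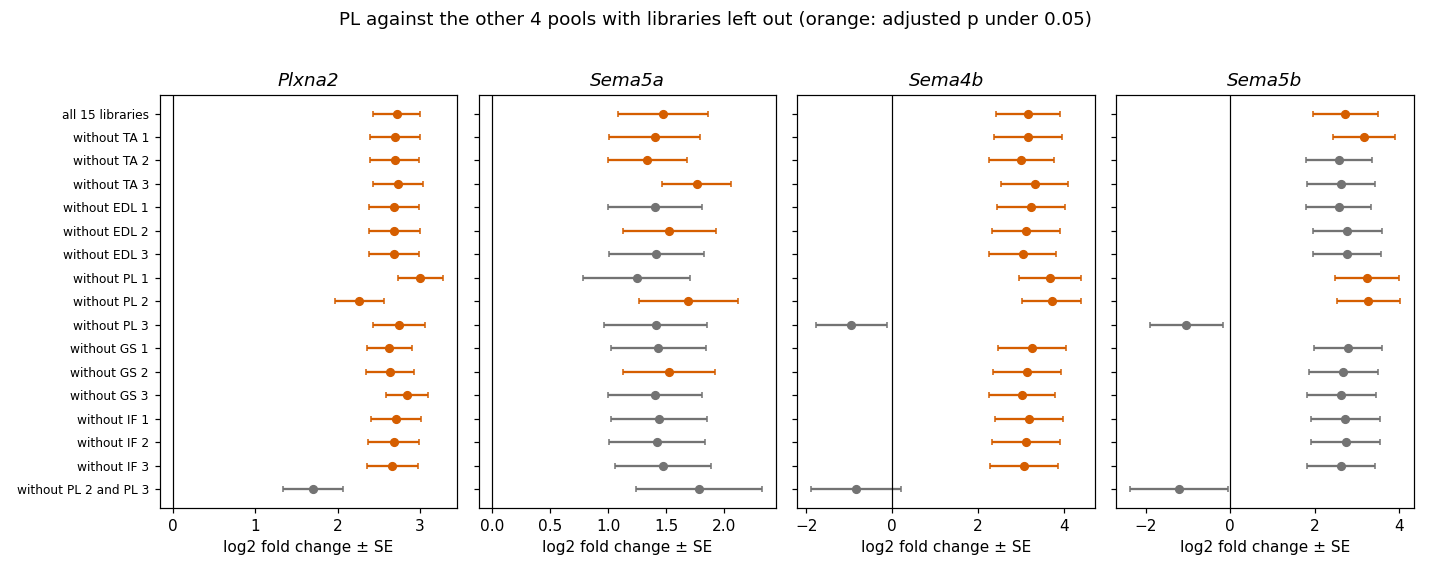
Log2 fold change of PL against the mean of the other 4 pools, with its SE, for Plxna2, Sema5a, Sema4b and Sema5b, with all 15 libraries, with each library left out and with PL 2 and PL 3 left out; orange points have an adjusted p under 0.05 and each panel has its own axis. Plxna2 stays between 2.26 and 3.01 without any 1 library, while Sema4b and Sema5b turn negative without PL 3.

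Markers of other cells also differed in these libraries. The summed level of 12 oligodendrocyte genes was 2451 CPM in PL 2, 613 in PL 3 and 379.6 in PL 1, against 166 to 206 in IF and 257 to 1443 in the 9 other libraries. In PL 2, 8 of these 12 genes had their highest level of the 15 libraries. The lists of 9 endothelial and 8 interneuron genes did not rise as wholes: Cdh5 alone stood at 661 CPM in PL 2, where the other endothelial genes summed to 23.0 and 6 were at 0, and Gad2 alone at 364 CPM in PL 3, where the other interneuron genes summed to 10.8 and 5 were at 0. Means of the summed 9 astrocyte genes were 2178 CPM in IF, 2511 in GS, 3022 in EDL, 3277 in PL and 3588 in TA. IF and GS, the pools lowest in Plxna2, also had the lowest astrocyte means. For 5 oligodendrocyte precursor genes the means were 112, 167, 183, 188 and 333 CPM in that order. For 9 microglia genes they were 61.0, 52.2, 56.7, 74.7 and 57.3 CPM. The interneuron sum was 34.7 to 69.4 CPM in IF, 120 to 236 in GS and 150 to 374 in TA, EDL and PL. Without Gad2 the sum was 33.5 to 60.9 CPM in IF, 10.8 in PL 3 and 74.4 to 263 in the remaining libraries. The part of these markers in the results was not tested.

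In IF against the other pools, 1 of 29 members fell, Plxna2, and none rose, with 0.397% of all genes tested called lower, 0.704% higher and 1.10% either way. Sema7a, which signals through integrins and Plxnc1, stood at 127, 79.7 and 156 CPM in IF, and at means of 336 ± 108 in TA, 286 ± 23.6 in GS, 267 ± 172 in PL and 238 ± 53.7 in EDL. Its IF difference was -1.21 ± 0.38 (log2, SE), with an edgeR adjusted p of 0.183, and PL 2 at 96.8 CPM lay among the IF values. Without PL 2 it was called lower in IF, and without PL 2 and PL 3 it was called in TA against IF.

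In TA, EDL and GS against the other pools the edgeR quasi-likelihood test called none of the 29 members, against 0.418%, 0.0976% and 0.126% of all genes tested. An unadjusted p under 0.05 was reached by 6, 6 and 5 members, respectively 20.7%, 20.7% and 17.2%, against 12.3%, 6.42% and 5.82% of all genes. DESeq2 called 3 in TA (Plxna3, Sema3b and Sema3c, all lower), none in EDL and 1 in GS (Plxna2, lower). Of all 14340 genes it called 435, 69 and 57. The limma voom test called only Sema3b in EDL, higher, and none in TA or GS, with 38, 111 and 12 of 14340 genes called there. Median log2 differences of the members were 0.08 in TA, 0.12 in EDL and 0.28 in GS, and over all genes 0.06, 0.06 and 0.04.

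**Figure D5:**
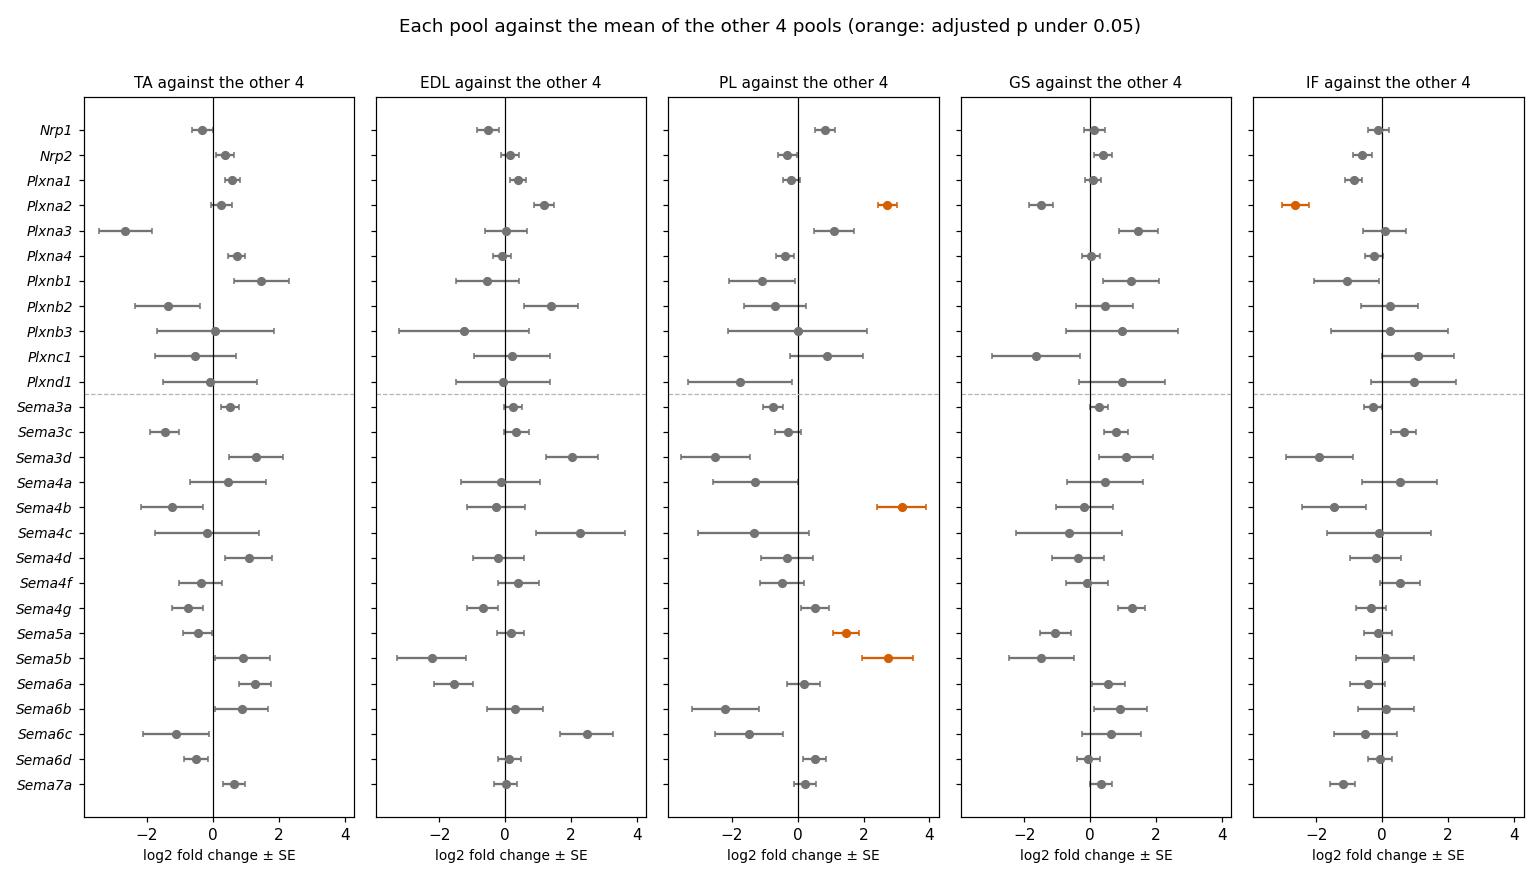
Log2 fold change with its SE for each pool compared with the mean of the 4 remaining pools, receptors above the dashed line and ligands beneath it; orange points have an adjusted p under 0.05, and Sema3b, Sema3e, Sema3f and Sema3g, with 5 reads or fewer in a pool, are left out. Calls appear for 4 members in PL and for Plxna2 in IF, and the 3 other panels hold none.

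Mean levels of the secreted class 3 ligands peaked in different pools. Sema3a, the ligand of Nrp1 complexes and a product of motor neurons themselves, was at 645 ± 60.5 CPM in TA, 566 ± 145 in GS, 554 ± 94.2 in EDL, 415 ± 34.2 in IF and 322 ± 164 in PL, with an edgeR adjusted p of 0.397 over the 5 pools. Sema3c, which binds both neuropilins, stood at 53.6, 39.0 and 34.6 CPM in TA, at 143, 41.8 and 59.3 in PL, at 71.5, 184 and 89.3 in EDL, at 125, 132 and 155 in IF and at 123.2, 172 and 147 in GS. The TA values were low together and overlapped only those of PL, at -1.47 ± 0.43 (log2, SE; edgeR adjusted p = 0.170) for TA against the other pools.

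Sema3d, another secreted ligand, stood at 30.9, 35.5 and 42.5 CPM in EDL, at 29.0, 8.49 and 35.5 in TA, at 12.1, 42.7 and 9.79 in GS, at 3.97, 3.87 and 4.34 in IF and at 7.58, 0.958 and 0 in PL. All IF and PL libraries lay beneath all libraries of EDL, TA and GS, although 8.49 in TA 2 and 7.58 in PL 1 were close. EDL against the other pools gave 2.03 ± 0.78 and PL -2.50 ± 1.06 (log2, SE), with edgeR adjusted p-values of 0.607 and 0.173.

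Sema3b had no read in the 3 TA libraries and stood at 17.5, 8.37 and 23.5 CPM in EDL (412 reads), at 8.12, 0 and 0 in PL, at 5.40, 1.75 and 1.16 in IF and at 2.78, 0 and 1.31 in GS. The EDL libraries lay above all 12 others, with PL 1 close to EDL 2. Its edgeR adjusted p was 0.214 over the 5 pools and 0.232 for EDL against the others, and no size is given because a pool without reads makes the fitted fold depend on the fit. Among 7 fibroblast and meninges genes, Dcn alone stood high in EDL, at 70.9, 195 and 86.7 CPM against 10.2 or less in the 12 other libraries, while the other 6 summed to between 12.9 and 24.0 CPM in EDL and to between 6.39 and 48.4 elsewhere. Its part in the EDL values of Sema3b and Sema3d was not tested.

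Sema3e, the Plxnd1 ligand, was at 6.17 ± 4.67 CPM in IF and at 2.53 ± 0.720 or less in the other pools. Sema3f, the ligand of Nrp2 and Plxna3, had nearly all its reads in IF: 24 reads fell in IF (0.916, 0.875 and 1.16 CPM) and 2 in the 12 other libraries, both in PL 1. The IF libraries also had the most genes with a read, 16637 to 17321 against 10548 to 16429 elsewhere, and the part of this in the difference was not tested. The ratio of rates was 38.0 with a 95% counting interval of 9.43 to 332, which covers counting error only. The gene did not pass the filter on low counts, and it was singled out after its values were seen. With every gene that had a read kept, the edgeR adjusted p was 0.0445 for IF against the others and 0.172 over the 5 pools. In that fit 514 of 20453 genes were called in IF. At these depths its transcript was scarce in IF too, 0.282 ± 0.0438 RPKM against 31.0 ± 3.30 for Nrp2 there.

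Class 4 held 6 transmembrane ligands. Sema4g stood at 68.7, 133 and 150.5 CPM in GS, at 34.1, 117 and 83.2 in PL, at 45.0, 56.6 and 43.8 in IF, at 24.7, 33.0 and 62.1 in EDL and at 52.2, 32.7 and 29.7 in TA. GS lay above IF, EDL and TA and overlapped PL, at 1.26 ± 0.41 (log2, SE; edgeR adjusted p = 0.484) for GS against the others. Sema4f ranged from 3.52 CPM in TA 3 to 182 in GS 2, Sema4d, the Plxnb1 ligand, from 2.71 in TA 2 to 163 in TA 1, and Sema4a from 0 in PL 2 and PL 3 to 38.7 in TA 1. For Sema4d, both extremes were TA libraries, so the spread within a pool was as wide as that between pools. Sema4c, a Plxnb2 ligand, reached 18.7 CPM in EDL 2 and was 4.39 CPM or less in the 14 other libraries.

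Class 6 ligands bind A-type plexins. Sema6a, a ligand of Plxna2 and Plxna4, stood at 436, 584 and 219 CPM in TA, at 134, 312 and 381 in GS, at 68.0, 556 and 48.5 in PL, at 150.3, 163 and 162 in IF and at 94.3, 95.5 and 65.1 in EDL. TA lay above IF and EDL, the EDL libraries were lower than those of TA, GS and IF, and PL was split, with PL 2 high and PL 1 and PL 3 low. Across the 5 pools its edgeR adjusted p was 0.290, and 0.00728 without PL 2, the library with the highest sum of oligodendrocyte genes. Whether RNA of those cells moved its value was not tested. Sema6d was at 368 ± 219.6 CPM in PL and 208 ± 106 in TA as its extremes, Sema6b at 25.8 ± 20.0 in GS and 4.47 ± 6.74 in PL, and Sema6c at 25.1 ± 26.3 in EDL and 2.74 ± 2.80 in PL.

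Genes that act with or behind these receptors were also read from a list of 45, of which 44 were tested. None was called across the 5 pools by edgeR, and 8 of 44 had an unadjusted p under 0.05, against 15.5% of all genes tested. DESeq2 called 3 partners and limma voom none, with 1175 and 258 of 14340 genes called. In PL against the others 3 of 44 rose and none fell, with 4.50% of all genes tested called higher. These were Chl1, an adhesion molecule of the L1 family that joins neuropilin complexes, Pak1, a kinase downstream of Rac, and Mical2, an enzyme that oxidises actin. Chl1 rose by 1.40 ± 0.30 (log2, SE), Pak1 by 1.35 ± 0.32 and Mical2 by 2.87 ± 0.75, with edgeR adjusted p-values of 0.0123, 0.0212 and 0.0333. Their PL libraries were spread widely, from 191 to 804 CPM for Chl1, 586 to 3003 for Pak1 and 3.83 to 809.0 for Mical2. Without PL 2, Chl1 stood at 0.54 ± 0.26 and Pak1 at 0.20 ± 0.23, and without PL 3, Mical2 stood at -0.86 ± 0.81, none of them called. Of the 15 fits that left out 1 library, 9 lost the call of Mical2, and 1 lost those of Chl1 and Pak1. In TA, EDL, GS and IF no partner was called by edgeR, while 3, 1, 2 and 6 of 44 had an unadjusted p under 0.05. Over all genes tested the shares with such a p were 12.3%, 6.42%, 5.82% and 9.38%. In PL it was reached by 14 of 44 partners, against 22.4% of all genes tested.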

How the data were processed

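Motor neurons of 5 muscle pools were captured by laser, and RNA was amplified with the Ovation RNA-Seq System V2 and sequenced from Nextera libraries, which carry no strand mark. The authors deposited read counts per gene; per the submitters' processing notes, reads were aligned with Bowtie 0.12.9 and the build was mm9, and the gene counter is not given in the sources used here. In 4 genes the deposited count columns held values below 0 (16 cells), so those columns were entered as a score; the 4 genes, none of them a member, were left out. The deposited RPKM columns, per the file headers, were not used, and RPKM here was computed from TMM-scaled counts and the deposited gene length. The authors' deposited lists of genes higher in a pool hold normalized count means (a signal), their ratio (a fold) and p-values, from DESeq per the submitters' processing notes. Columns named for the foot were matched to IF by that word and the replicate number.

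Tests used edgeR 4.0.16 in R 4.3.3: filterByExpr (14340 of 36814 genes kept), TMM scaling, 1 coefficient per pool, all 15 libraries in 1 fit, quasi-likelihood F-tests and Benjamini-Hochberg adjustment over all tested genes within a comparison, with a threshold of 0.05. A pool was compared with the mean of the other 4 coefficients, and these comparisons share libraries. Standard errors were obtained by dividing a log2 fold change by the root of its F statistic. Replicates of a pool differed beyond counting noise, and not equally. For pairs of replicates, chi-square was 11.4 to 15.8 times its degrees of freedom in IF. It was 44.8 to 112 times in TA, EDL and GS and 149 to 247 times in PL. The 5 pools shared 1 estimate of the spread for each gene, so PL comparisons were not judged by the spread of PL alone. Alternatives were DESeq2 1.42.0, limma voom 3.58.1, RLE scaling, no filter, a replicate block and left-out libraries. Values in every library are given for members called in any comparison or with an unadjusted p under 0.05 over the 5 pools, and Sema3f and Sema7a were added after their values were seen. The members and lists were chosen with earlier results of these data known. One marker of motor neurons was not analysed here.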

Additional observations from a re-analysis of the deposited data

How the results depend on the processing

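Counts of called members moved with the settings, and so did those of all genes tested. Across the 5 pools, 188 of 14340 genes were called in the main fit and 1425 of 20453 without the filter. DESeq2 called 1175 of 14340, and 1211 of 14984 were called without PL 1. In that order, the counts were 60, 492, 435 and 246 in TA and 14, 238, 69 and 25 in EDL. They were 698, 1485, 1717 and 3210 in PL, 18, 171, 57 and 34 in GS and 158, 514, 256 and 333 in IF. Of the pairs, TA against PL had 33, 545, 1065 and 1800. Across the 5 pools 1 member was called, against 7 with every gene that had a read, 5 by DESeq2, 2 by limma voom, 2 without PL 2 and PL 3, and 1 to 5 when leaving out 1 library (5 without PL 1, 2 without PL 2 or TA 3). In TA the count of 0 became 2 without the filter, 3 by DESeq2, 3 without PL 2 and PL 3, and 0 to 1 leaving out 1 library (1 without PL 2). In EDL 0 became 3 without the filter, 1 by limma voom, 1 without PL 2 and PL 3, and 0 to 1 leaving out 1 library (1 without PL 1). In PL the 4 calls became 2 by limma voom, 0 without PL 2 and PL 3, and 1 to 7 leaving out 1 library: 1 without PL 3, 7 without PL 1, and 2 without EDL 1, EDL 3, GS 1, GS 3, IF 1, IF 2 or IF 3. In GS 0 became 1 without the filter and 1 by DESeq2, and stayed at 0 when leaving out 1 library. In IF the single call became 2 without the filter, and 1 to 2 leaving out 1 library (2 without PL 2). Calls over the 10 pairs went from 4 to 14 without the filter, 19 by DESeq2, 10 without PL 2 and PL 3, and 3 to 27 leaving out 1 library (27 without PL 1, 7 without PL 2). For the partner list the count across the pools went from 0 to 4 without the filter, 3 by DESeq2, and 0 to 4 leaving out 1 library (4 without PL 1, 2 without PL 3, 1 without PL 2). In PL its count of 3 became 6 without the filter, 5 by DESeq2, 0 by limma voom, 0 without PL 2 and PL 3, and 2 to 12 leaving out 1 library (12 without PL 1).

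Directions turned for Sema4b in PL (-0.95 without PL 3, -0.83 without PL 2 and PL 3), Sema5b (-1.04 and -1.21) and Mical2 (-0.86 and -0.0175), since the high library was then gone. Leaving out 1 library gave differences up to 3.72 for Sema4b, 3.27 for Sema5b and 3.44 for Mical2, each without PL 2. RLE scaling turned no direction and moved the median of all genes by less than 0.1. DESeq2 gave no adjusted p for Sema5b in PL. A replicate block left 1 of the 4 member calls (Plxna2) and 0 of the 3 partner calls in PL and changed none of the other counts beyond 1.5 times. Same-numbered libraries had correlations of deviations from -0.07 to 0.13 (1 of 30 pairs above 0.1), and 6 of 15 correlated best with their own number. With replicates this far apart, such values cannot settle whether same-numbered libraries shared animals, which the labels do not say. With 1 PL library left, it is assumed to vary like the other pools. Depth limited Sema3f and Sema3g, which were too low to be tested, and Sema3b and Sema3e, with 5 reads or fewer in a pool.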
